A study of Mus musculus with 9 samples.

Results

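Ahnak and Svil were the genes whose RNA level was lowest in mouse bone marrow cells that carried NUP98-NSD1 alone, and higher both in cells with NRASG12D alone and in cells with both oncogenes. Of 55274 gene identifiers, 13493 reached an FPKM (a fragment count divided by transcript length and by the library's total) of at least 1 in at least 3 of 9 libraries. Among these, genes were taken whose mean log2(FPKM + 1) in NUP98-NSD1 was at least 0.8 below the mean in each of the other groups and whose highest NUP98-NSD1 library lay under all 6 others. Nras, Ccnd1 and names starting with Gm, Mir, Slc or Rab were left out, and 2 genes remained. Both genes were chosen by their levels in NUP98-NSD1 against the other groups, which are therefore given as a description, without a test.

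The 9 RNA-seq libraries came from bone marrow cells of C57BL/6J female mice treated with 150 mg/kg of 5-fluorouracil 4 days before harvest and stimulated for 48 h with cytokines. All 3 groups shared this treatment and were transduced with MSCV retroviral vectors: NRASG12D (an always active RAS protein, vector with BFP), NUP98-NSD1 (a fusion of a nuclear pore protein with a histone methyltransferase, vector with GFP), or both, with 3 libraries each. Transduced cells were sorted by their fluorochrome and expanded with IL-6, IL-3 and SCF, so the viral promoter drove the oncogenes in every transduced cell type. No group with empty vectors was analysed here, and nothing states that the 3 libraries of a group were separate cultures, so p-values measure the spread between these libraries, which may be technical. According to the study, cultures with NRASG12D alone consisted mainly of mast cells.

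AHNAK is a giant scaffold protein under the plasma membrane. It binds the complex of annexin A2 and S100A10, is tied to the actin cytoskeleton, and is known for roles in calcium entry and phospholipase C gamma signalling in blood cells. Supervillin, the protein of Svil, is the largest member of the villin and gelsolin family of actin-binding proteins. It joins actin and myosin II to membranes and acts in podosomes, cell spreading and cytokinesis. Both proteins thus belong to the cortex that links membrane and actin, and neither gene was in any of the 25 pathway and cell type lists used here.

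Ahnak (ENSMUSG00000069833.13) lies on chromosome 19 from 8989284 to 9076914 on the plus strand of GRCm38. Its longest annotated transcript has 18100 bases in 5 exons, and 1 exon of 17498 bases holds nearly all of the 16968 coding bases. No annotated gene overlaps Ahnak or Svil. In neither gene was a stretch of 50 bases, the length of a read, shared with a transcript of another gene. Within the longest Ahnak transcript, however, 21.3% of such stretches occurred more than once, against 0% in Svil. The stretch shown here was the most repeated one of the Ahnak coding sequence. It begins at base 8050 of the transcript, at chr19:9009146-9009195, and stands in 6 identical copies up to base 13852, spaced by 384 to 2154 bases. It is printed without capitals, because all of it is repeated, to show what a read from this exon can look like. A read that lies wholly in it cannot be assigned to 1 copy, although all copies belong to the same gene.
Ahnak repeated coding stretch: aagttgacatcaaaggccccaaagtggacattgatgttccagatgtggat

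The 250 bases before the Ahnak start, chr19:8989034-8989283 on GRCm38.p6 (plus strand, RefSeq), are shown because the gene's RNA level differed between the groups. The capitals mark the GC boxes, the letters GGGCGG read on the opposite strand.
Ahnak upstream region: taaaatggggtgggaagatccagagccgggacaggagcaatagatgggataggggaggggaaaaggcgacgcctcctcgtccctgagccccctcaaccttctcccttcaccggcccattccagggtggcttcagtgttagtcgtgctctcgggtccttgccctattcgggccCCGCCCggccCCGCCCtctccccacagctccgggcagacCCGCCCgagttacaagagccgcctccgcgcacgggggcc
The 3 GC boxes begin 78, 68 and 39 bases before the start, and do not overlap. A GC box on either strand was found in 32.7% of 32851 RefSeq regions of the same length. The letters of 5 other motifs were not in this window on either strand. Of these, the AP-1 letters TGANTCA were found in 6.75% of all regions. ETS sites were searched only as the letters CCGGAA, found in 12.0% of them. The shorter spelling GGAA was not searched for, and it does stand in the Ahnak window. For RUNX the letters searched were TGTGGT, with matches in 14.1% of the regions. GATA factors were represented by AGATAA, present in 9.99%. The cyclic AMP response element (CRE), spelled TGACGTCA, was in 1.55%. These are matches of letters in a short window and not binding sites.

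Ahnak was measured at an FPKM of 8.20, 12.5 and 10.9 in the NRASG12D libraries. It had 5.17, 3.23 and 6.14 in NUP98-NSD1, and 6.17, 20.6 and 11.2 in NUP98-NSD1+NRASG12D. All 3 NUP98-NSD1 libraries lay under the other 6, but the first NUP98-NSD1+NRASG12D library was only 0.0268 FPKM above the third NUP98-NSD1 library. With an estimated 3254 and 2784 fragments behind them, the 95% Poisson intervals of these libraries were 5.96 to 6.38 and 5.91 to 6.37 FPKM, which overlap. The groups of Ahnak were therefore separated by less than the counting error. The mean FPKM was 10.5 ± 2.17 in NRASG12D, 4.85 ± 1.48 in NUP98-NSD1 and 12.6 ± 7.30 in NUP98-NSD1+NRASG12D (SD, n = 3 each). This is a ratio of means of 2.17 for NRASG12D and of 2.61 for NUP98-NSD1+NRASG12D over NUP98-NSD1, and a difference of 1.00 and 1.11 on the log2(FPKM + 1) scale.

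Svil (ENSMUSG00000024236.18) lies on chromosome 18 from 4920540 to 5119299 on the plus strand, with a longest transcript of 7907 bases among 15 annotated ones. It was measured at 12.0, 13.7 and 11.6 FPKM in NRASG12D. It had 6.38, 6.65 and 6.20 in NUP98-NSD1, and 10.2, 12.6 and 19.9 in NUP98-NSD1+NRASG12D. The NUP98-NSD1 libraries were close together, and the lowest of the other 6 was 3.52 FPKM above the highest of them. The means were 12.5 ± 1.12, 6.41 ± 0.226 and 14.2 ± 5.08 FPKM (SD, n = 3 each). Here the ratio of means over NUP98-NSD1 was 1.94 for NRASG12D and 2.22 for NUP98-NSD1+NRASG12D, with differences of 0.86 and 0.99 on the log2(FPKM + 1) scale. In bulk RNA, fewer cells that express a gene and less RNA per cell cannot be told apart.

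**Figure D1:**
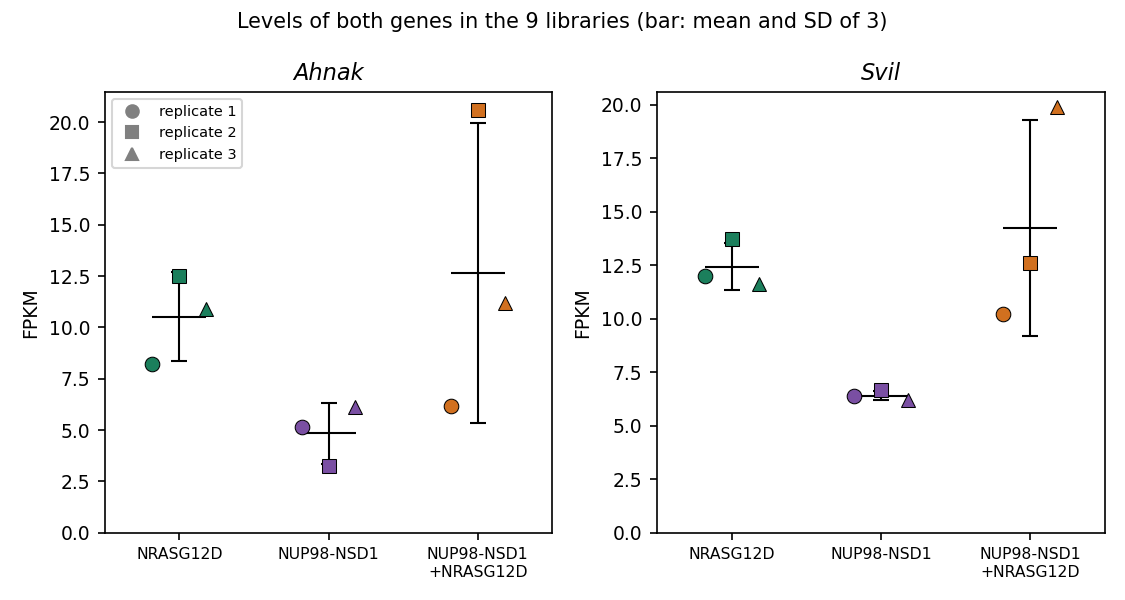
FPKM of Ahnak (left) and Svil (right) in 9 libraries, with 1 symbol per replicate number and a bar for the mean and SD of each group of 3. Svil was tight in NUP98-NSD1 (6.20 to 6.65) and spread in NUP98-NSD1+NRASG12D (10.2 to 19.9), while the lowest NUP98-NSD1+NRASG12D library of Ahnak (6.17) was level with the highest of NUP98-NSD1 (6.14).

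The NUP98-NSD1+NRASG12D libraries did not agree on which gene was higher. Ahnak peaked in the second of them and Svil in the third, and the first was the lowest for both. By FPKM, which are per length, Svil was higher than Ahnak in 8 of 9 libraries. A trend on transcript length that differed between libraries was not removed from these values, so ratios near 1 do not rank the genes. The ratio of Ahnak to Svil ran from 0.682 to 0.938 in NRASG12D, from 0.486 to 0.991 in NUP98-NSD1, and was 0.607, 1.63 and 0.560 in NUP98-NSD1+NRASG12D. The ratio thus varied as much within groups as between them.

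Both genes were in the middle of the range of expressed genes. As a rank among the 13493 genes, which no scaling of a library changes, Svil stood between the 55.3 and 57.4 percentile in NRASG12D, between 35.2 and 36.8 in NUP98-NSD1, and at 46.0, 52.1 and 63.4 in NUP98-NSD1+NRASG12D. Ahnak stood at 47.3, 55.2 and 53.9 in NRASG12D and at 31.2, 22.6 and 36.5 in NUP98-NSD1. In NUP98-NSD1+NRASG12D it was at 35.8, 63.5 and 50.5. By rank, too, all NUP98-NSD1 libraries of Svil were below the other 6, whereas the first NUP98-NSD1+NRASG12D library of Ahnak ranked below the third NUP98-NSD1 library.

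The comparison of NUP98-NSD1+NRASG12D with NRASG12D was not used to choose the genes, and asks whether they differed once the fusion was added to NRASG12D. Neither gene did so beyond the spread between libraries. For Ahnak the difference was 0.12 on the log2(FPKM + 1) scale (SE 0.39, 95% interval -0.81 to 1.04), with an adjusted p of 0.831 by limma with Benjamini-Hochberg adjustment over all genes tested. For Svil it was 0.13 (SE 0.25, 95% interval -0.45 to 0.72), with a limma adjusted p of 0.695. The unadjusted limma p-values were 0.776 and 0.611. In the same comparison 38.3% of the 13493 genes passed the adjusted threshold of 0.05, 24.2% higher and 14.1% lower. Genes chosen for standing above NUP98-NSD1 in both groups are not a free sample of these. Since the intervals reach 1.04 and 0.72, the levels of either gene with NRASG12D alone and with both oncogenes were not shown to be equal. The sign of both differences turned negative after median-ratio scaling (-0.060 for Ahnak and -0.051 for Svil). The order of the group means was NUP98-NSD1, NRASG12D and NUP98-NSD1+NRASG12D for both genes, and the last pair of this order did not differ beyond its spread.

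The pattern was rare, and Ahnak and Svil were at its edge. A total of 458 genes were at least 0.8 higher in NRASG12D than in NUP98-NSD1 and 1074 were so in NUP98-NSD1+NRASG12D, but only 21 met both. In 48 genes (0.356%) every NUP98-NSD1 library lay under the other 6, and 5 genes (0.0371%) met all conditions before names were left out. The 3 left out by name were Nras itself, Ccnd1 (cyclin D1, which drives the entry into the cell cycle) and Slc25a24 (a mitochondrial carrier of ATP-Mg and phosphate). Their smaller differences were 2.81, 2.78 and 0.95 on the log2(FPKM + 1) scale. Slc25a24 had 6.06, 7.32 and 6.07 FPKM in NRASG12D, 3.16, 2.72 and 2.73 in NUP98-NSD1, and 8.86, 18.5 and 33.5 in NUP98-NSD1+NRASG12D.

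**Figure D2:**
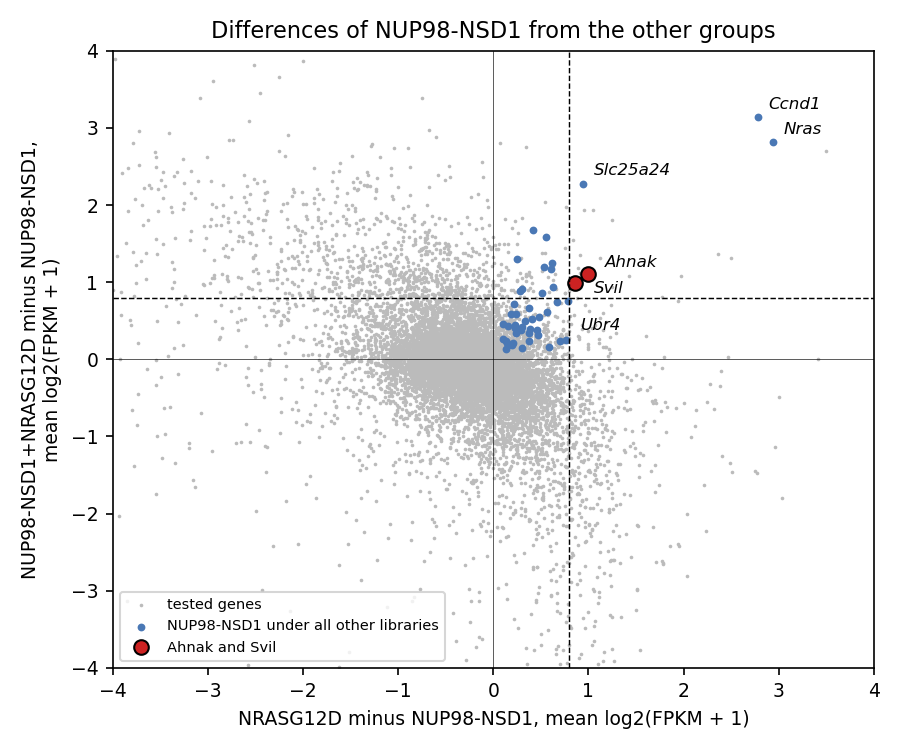
Difference of the mean log2(FPKM + 1) of NRASG12D (horizontal) and NUP98-NSD1+NRASG12D (vertical) from NUP98-NSD1 for the 13357 of 13493 tested genes inside the plotted range. Dashed lines mark 0.8, blue points are the 48 genes whose NUP98-NSD1 libraries all lay under the other 6, and Ahnak and Svil sit just inside the corner of both lines at the upper right.

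Just inside the threshold, the smaller difference was 0.86 for Svil and 1.00 for Ahnak. Just outside it, among genes without overlap, stood Ubr4 (0.76, an E3 ubiquitin ligase), Cd180 (0.67, a Toll-like receptor relative) and Ubtd1 (0.63). Next came Klra2 (0.62, a Ly49 receptor not searched for stretches shared with other genes) and Tmem154 (0.61). Ubr4 was the tightest of these 5 genes. It had 7.60, 8.44 and 9.41 FPKM in NRASG12D, 4.51, 4.91 and 4.08 in NUP98-NSD1, and 7.30, 9.61 and 8.10 in NUP98-NSD1+NRASG12D. Its longest transcript, of 15928 bases, is nearly as long as that of Ahnak. Of 16 genes with both differences but overlapping libraries, 11 had names that the rule leaves out, and the other 5 were mt-Tl1, Fblim1, Adam8, Clec11a and Ckb. Fblim1 (migfilin, a filamin-binding adapter of adhesions) had 23.1, 21.5 and 23.7 FPKM in NRASG12D, 4.92, 4.60 and 5.67 in NUP98-NSD1, and 3.33, 20.9 and 20.9 in NUP98-NSD1+NRASG12D. As with Ahnak, the first NUP98-NSD1+NRASG12D library was the low one.

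Single libraries decided whether either gene met the rule. Without the second NUP98-NSD1+NRASG12D library the smaller difference of Ahnak was 0.71, and without the second NUP98-NSD1 library it was 0.78, both under 0.8. Svil was under 0.8 without the third NUP98-NSD1+NRASG12D library (0.74) and without the second NRASG12D library (0.79). Without the first NUP98-NSD1+NRASG12D library 10 genes met the rule, namely Ahnak, Svil, Adam8, Capn2, Fblim1, Inppl1, Lpp, Speg, Tecpr1 and Traf1. Without the third NUP98-NSD1 library 4 genes did. Under quantile normalization and median-ratio scaling the smaller difference of Ahnak grew to 1.20, but its libraries overlapped and it was no longer a member. Svil met the rule under both.

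**Figure D3:**
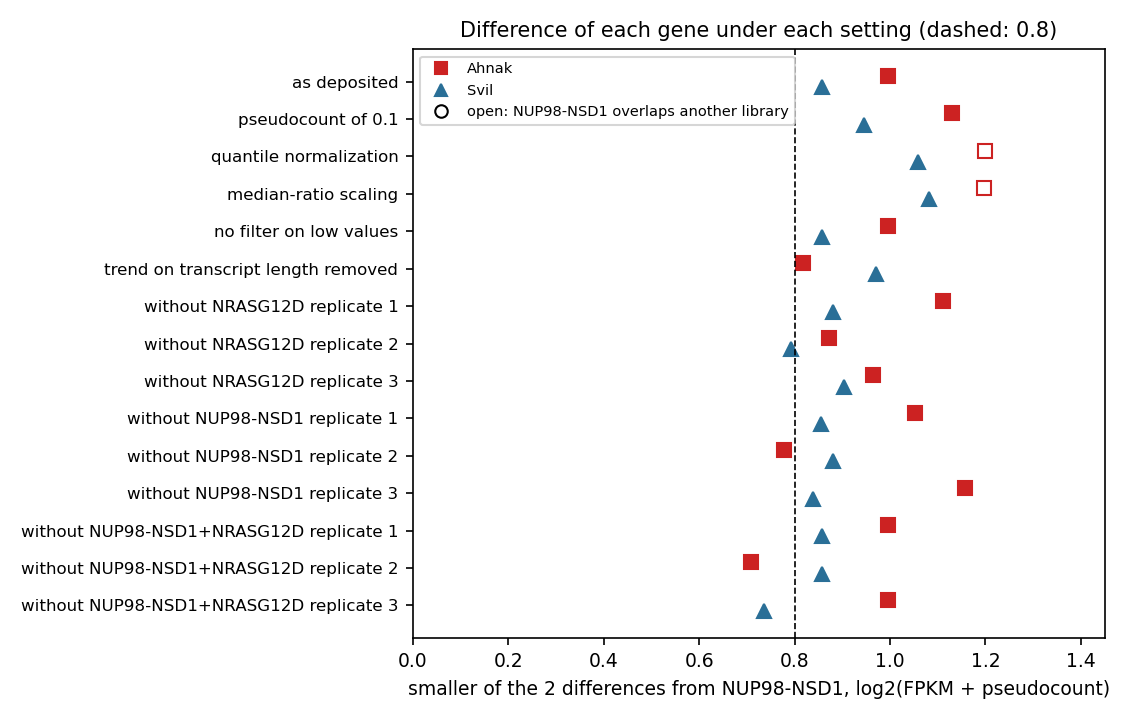
Smaller of the differences of Ahnak (squares) and Svil (triangles) from NUP98-NSD1 on the log2 scale, as deposited and under each alternative, with the threshold of 0.8 dashed. Open symbols mark overlap of NUP98-NSD1 with another library, as for Ahnak under quantile normalization and median-ratio scaling, and 4 points lie under the threshold.

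The levels of the whole series bear on these differences. Depth was estimated at 23600000 to 37000000 fragments per library. Nras was at 47.7 to 51.2 FPKM in NUP98-NSD1, against 348 to 479 with NRASG12D alone and 245 to 701 with both oncogenes, as the labels say (differences from NUP98-NSD1 of 2.94 and 2.81, two-sided exact permutation p = 0.1 each, the smallest that 3 against 3 libraries can give). Nup98 was at 9.12 to 11.1, 18.2 to 19.0 and 11.9 to 20.2 FPKM, with the lowest NUP98-NSD1+NRASG12D value in the first library. Nsd1 overlapped between all groups, at 11.7 to 14.7, 10.8 to 16.2 and 9.98 to 16.2 FPKM. Over all tested genes the median difference of NUP98-NSD1 from NRASG12D was 0.27, and 0.01 after median-ratio scaling. Against that shift the difference of NRASG12D from NUP98-NSD1 grew from 0.86 to 1.13 for Svil and from 1.00 to 1.26 for Ahnak.

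The shift depended on transcript length, and both genes are long. Among protein-coding genes, the median difference of NUP98-NSD1 from NRASG12D went from 0.49 for 554 genes of up to 1000 bases to -0.15 for 32 genes of more than 15000 bases. The group means of NUP98-NSD1+NRASG12D against NUP98-NSD1 had no such slope, with class medians from -0.10 to 0.01. Single NUP98-NSD1+NRASG12D libraries did slope, and not all in the same direction. From the shortest to the longest class, the median deviation from each gene's mean over 9 libraries went from 0.45 to -0.09 in the first. In the second it went from -0.12 to 0.10, and in the third from 0.11 to -0.02. The median of NUP98-NSD1+NRASG12D against NRASG12D went from 0.45 to -0.05. Ahnak, in the longest class, differed by 1.00 (lower with NUP98-NSD1 than with NRASG12D alone), the fourth largest such difference in its class of 32. Svil, among 870 genes of 6000 to 8000 bases with a median of 0.09, was 0.86 lower, at rank 30 of the class. With each class median taken out of every library, the differences were 0.82 and 1.01 for Ahnak and 0.97 and 1.12 for Svil, and both still met the rule. The part of RNA quality in these slopes was not tested.

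**Figure D4:**
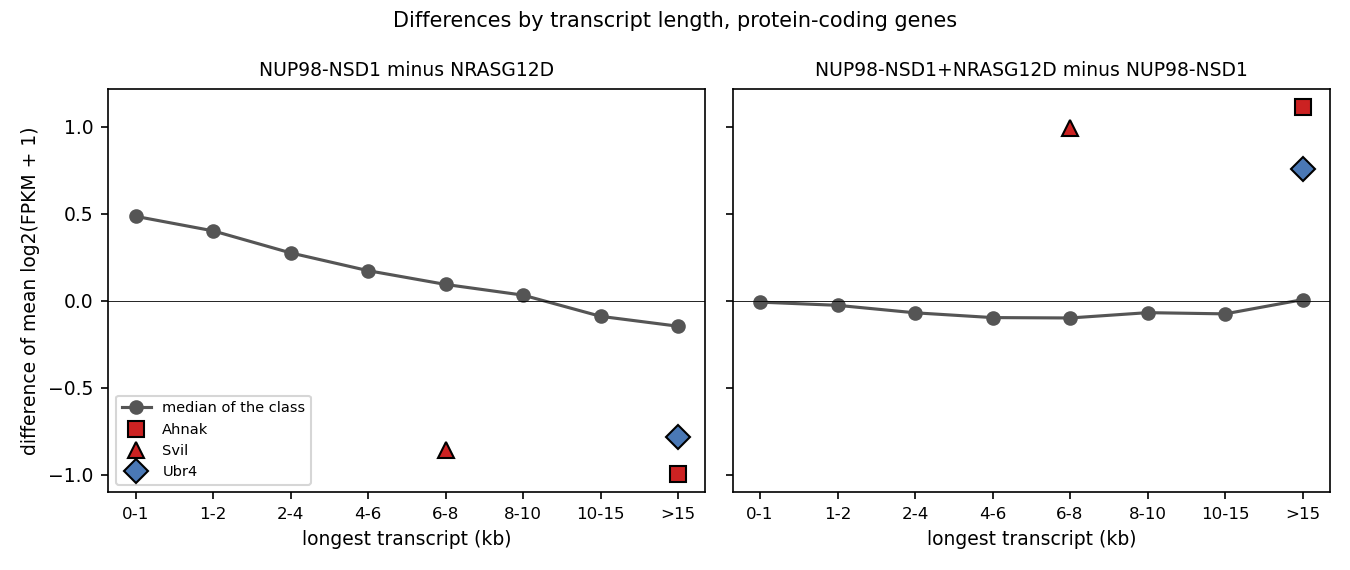
Median difference of mean log2(FPKM + 1) by class of transcript length (kilobases), for NUP98-NSD1 minus NRASG12D (left) and NUP98-NSD1+NRASG12D minus NUP98-NSD1 (right), with Ahnak, Svil and Ubr4 marked in their classes. The medians slope from 0.49 to -0.15 on the left and stay between -0.10 and 0.01 on the right, and the marked genes lie outside them on both sides.

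None of the 13 cell type lists had its summed level in all 3 NUP98-NSD1 libraries under the other 6. The summed FPKM of 15 listed mast cell genes was 36860 to 39043 with NRASG12D alone, 29986 to 36389 with NUP98-NSD1 alone and 814 to 5108 with both, and all were detected except Cpa3, which is listed at 0 in every NRASG12D library. Without Cpa3, an alternative added after seeing the data, the NUP98-NSD1 sums were 16573 to 22010, and those of NRASG12D stayed at 36860 to 39043. Monocyte and macrophage genes (15 in the tables) summed to 70.9 to 146, 1813 to 2487 and 5260 to 14424. The 16 neutrophil genes summed to 30.2 to 41.4, 1916 to 6437 and 9679 to 20817, with Camp, Ltf and Retnlg at 0 in NRASG12D. By these sums, mast cell genes were highest in NRASG12D and neutrophil and monocyte genes highest in NUP98-NSD1+NRASG12D, with NUP98-NSD1 in between. Single mast cell genes went both ways. Of 14 tested, 7 were lower and 4 (Cpa3, Mcpt4, Mcpt8 and Hdc) higher in NUP98-NSD1 than in NRASG12D by limma. The call of Cpa3 rests on its listed value of 0 in NRASG12D, and whether that is a true absence was not tested. Over all genes 9.98% were lower and 42.2% higher. The 6 basophil genes summed to 1271 to 1499, 1373 to 2160 and 40.1 to 598. The 11 megakaryocyte and platelet genes had the lowest mean sum in NUP98-NSD1 (335, against 640 and 493). They summed to 616 to 684 in NRASG12D, to 305 to 392 in NUP98-NSD1, and to 86, 1261 and 132 with both oncogenes, with the peak in the library where Ahnak peaked. Their part in the level of Ahnak was not tested. Among the 12 pathway lists, 1, of 39 RAS regulators and effectors, had its NUP98-NSD1 sums (785 to 877) under the other 6 (1107 to 1537). That list holds Nras, and without it the sums were 734 to 826 in NUP98-NSD1, 753 to 778 in NRASG12D and 836 to 917 with both, which overlap.

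The binding partners and relatives of AHNAK moved in different ways. This list, like those of the gelsolin family and of supervillin partners, was set up after both genes were known. S100a10 (a subunit of the annexin A2 complex) was closest to the pattern, at 165, 166 and 124 FPKM in NRASG12D, 115, 85.9 and 105 in NUP98-NSD1, and 127, 148 and 198 in NUP98-NSD1+NRASG12D. Its groups did not overlap, as in 0.356% of all genes, but its difference of 0.57 from NRASG12D was under the threshold. NUP98-NSD1 had less S100a10 than NRASG12D (limma adjusted p = 0.019), a call that was lost without the first or second NRASG12D library or the second NUP98-NSD1 library (limma adjusted p of 0.062, 0.0591 and 0.0655), with all 9 libraries in 1 fit (0.068) and without a filter (0.0994). Anxa2, the other subunit, was at 10.4 to 12.8 FPKM with NRASG12D alone and rose to 104 to 247 with NUP98-NSD1 alone and to 590 to 1037 with both (log2 difference from NRASG12D 3.60 ± 0.29 and 5.82 ± 0.24, SE; limma adjusted p = 0.000323 and 0.000034).

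Ahnak2, the paralog of Ahnak, did not return in the cells with both oncogenes. It had 17.1, 19.9 and 24.9 FPKM in NRASG12D, 3.60, 3.99 and 8.72 in NUP98-NSD1, and 0.270, 7.81 and 1.83 in NUP98-NSD1+NRASG12D. Against NRASG12D it fell by 1.82 ± 0.29 (SE) in NUP98-NSD1 by limma, with an adjusted p of 0.00303, and 0.0581 with all 9 libraries in 1 fit. In NUP98-NSD1+NRASG12D it fell by 2.76 ± 0.64 (SE, limma adjusted p = 0.0152, 0.0576 without the third NRASG12D library and 0.0921 without a filter). None of its 50-base stretches was shared with another gene. Plcg1 (phospholipase C gamma 1) was at 20.7 to 32.4, 15.6 to 22.7 and 1.35 to 3.40 FPKM in the groups in the same order, and fell by 3.09 on the log2 scale between the first and the last (limma adjusted p = 0.00039). Prx was under the filter.

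No other member of the gelsolin and villin family had the order of Svil with separate groups. Of 6 tested genes, 4 were lower and 0 higher in NUP98-NSD1 than in NRASG12D, where 9.98% of all genes were lower and 42.2% higher. In NUP98-NSD1+NRASG12D against NRASG12D, 3 (Scin, Vill and Avil) were lower and 0 higher, against 14.1% of all genes lower. Gsn (gelsolin, which severs actin filaments) had 430, 521 and 466 FPKM in NRASG12D, 254, 251 and 355 in NUP98-NSD1 and 136, 272 and 612 in NUP98-NSD1+NRASG12D. Capg (a filament capping protein) had 528, 635 and 524, then 344, 312 and 420, then 230, 786 and 814. Both fell between NRASG12D and NUP98-NSD1 (by 0.73 ± 0.15 and 0.65 ± 0.14 on the log2 scale, SE; limma adjusted p = 0.00731 and 0.00739). With all 9 libraries in 1 fit none of the 4 calls was kept (limma adjusted p = 0.237 for Gsn, 0.269 for Capg, 0.0631 for Avil and 0.594 for Scin). As with Ahnak and Svil, the first NUP98-NSD1+NRASG12D library was the lowest of its group for both, but here it was under the NUP98-NSD1 libraries. Avil (advillin) and Scin (scinderin) were at 3.90 to 18.8 and 6.89 to 77.0 FPKM in NUP98-NSD1+NRASG12D against 273 to 429 and 654 to 817 in NRASG12D, and fell by 5.53 (Avil) and fell by 4.72 (Scin) on the log2 scale (limma adjusted p = 0.00047 and 0.00318). Vil1 was under the filter.

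**Figure D5:**
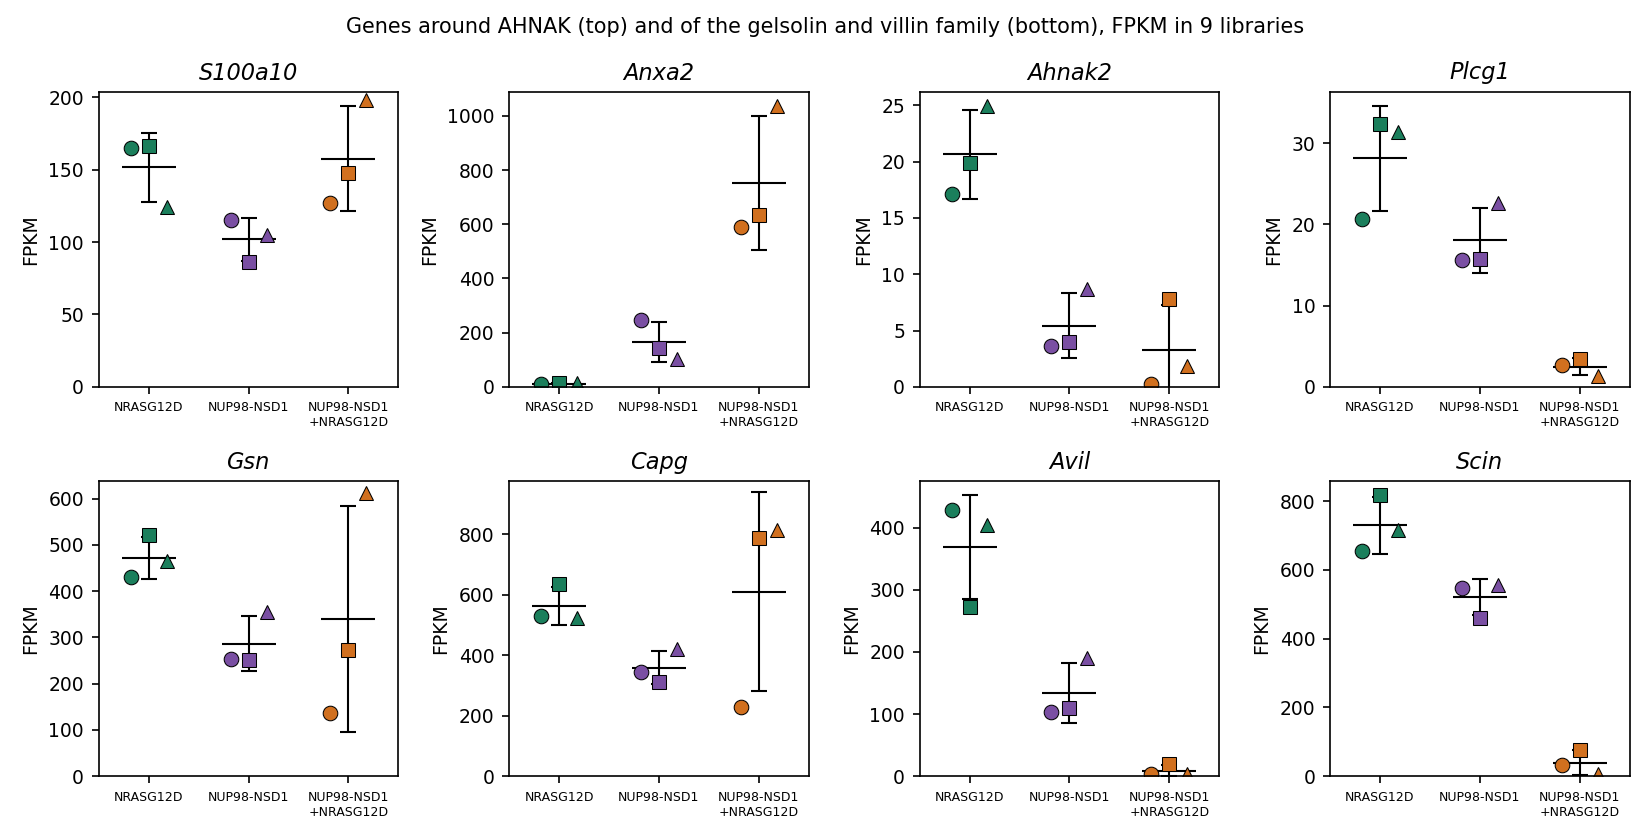
FPKM in 9 libraries of S100a10, Anxa2, Ahnak2 and Plcg1 (top) and of Gsn, Capg, Avil and Scin (bottom), with the mean and SD of each group of 3 as bars. S100a10 alone among these 8 had all NUP98-NSD1 libraries (85.9 to 115) under the other 6 (124 to 198).

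Of 6 tested supervillin partners, 3 were higher and none lower in a comparison of NUP98-NSD1 with NRASG12D, where 42.2% of all genes were higher. Myh9 (the heavy chain of non-muscle myosin II) had 61.1, 76.7 and 73.4 FPKM in NRASG12D, 37.9, 42.2 and 71.2 in NUP98-NSD1, and 31.2, 55.0 and 60.1 in NUP98-NSD1+NRASG12D. It passed the limma test in no comparison. Anln (anillin, of the cytokinetic ring) had 6.58 to 9.83, 13.1 to 14.7 and 14.5 to 16.4 FPKM and was higher in NUP98-NSD1 than in NRASG12D by 0.69 ± 0.14 on the log2 scale (SE, limma adjusted p = 0.00707, and 0.0634 after quantile normalization).

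In the wider list of 32 actin, annexin, galectin and S100 genes, 10 were higher and 9 lower in NUP98-NSD1 than in NRASG12D, against 42.2% and 9.98% of all genes. In NUP98-NSD1+NRASG12D against NUP98-NSD1, 7 were higher and 1 lower, where 8.61% of all genes were called, 2.3% higher and 6.31% lower. The list's median difference in that comparison was 0.47, against -0.06 over all genes tested. Only S100a10 and Cotl1 (coactosin-like protein) had every NUP98-NSD1 library under the other 6. Cotl1 was at 159 to 172 FPKM in NUP98-NSD1, against 196 to 199 with NRASG12D alone and 174 to 360 with both, a smaller shift than that of either Ahnak or Svil.

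Genes that RAS and ERK signalling induce did not follow Ahnak and Svil as a group. Ahnak and Svil are not on this list of 46 genes, of which 37 were tested, and 1 of them, Ccnd1, had every NUP98-NSD1 library under the other 6. In NUP98-NSD1 against NRASG12D, 14 were higher and 8 lower by limma (52.1% of all genes were called, 42.2% higher and 9.98% lower), with a list median of 0.24 against 0.27 over all genes. In NUP98-NSD1+NRASG12D against NUP98-NSD1, 2 were higher and 11 lower (2.3% and 6.31% of all genes), with a median of -0.62 against -0.06. In NUP98-NSD1+NRASG12D against NRASG12D, 8 were higher and 15 lower (24.2% and 14.1% of all genes), with a median of -0.23 against 0.23. Without the second NRASG12D library the last count was 5 higher and 10 lower, and without the second NUP98-NSD1 library the second was 1 higher and 7 lower. These comparisons share libraries and are not independent.

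Among the 10 most abundant genes of that list, 5 had every NUP98-NSD1 library above the other 6, namely Junb, Ier2, Jun, Egr1 and Fos. The others, Ier3 and Myc among them, did not. Junb had 744 to 996 FPKM in NUP98-NSD1, against 322 to 399 with NRASG12D alone and 202 to 262 with both oncogenes. In the order NRASG12D, NUP98-NSD1 and both, Ier2 had 378 to 489, 986 to 1286 and 112 to 205, and Jun had 106 to 142, 206 to 261 and 61.8 to 79.1. Each was higher in NUP98-NSD1 than in NRASG12D (log2 difference 1.23, 1.39 and 0.91; limma adjusted p = 0.00123, 0.000725 and 0.00313). Egr1 had 257 to 324, 379 to 552 and 17.0 to 34.5 FPKM, and Myc had 163 to 179, 235 to 305 and 149 to 243. Fos differed from the other 4 in being lowest with NRASG12D alone (5.03 to 9.14, 97.8 to 190 and 39.1 to 73.4). Plaur (the urokinase receptor) was at 4.87 to 9.46, 21.8 to 28.6 and 39.6 to 196. Ier3 and Kcnn4 were lowest with both oncogenes, at 56.4 to 109 and 71.3 to 79.4 FPKM against 407 to 429 and 225 to 237 in NRASG12D. Dusp6, the phosphatase that limits ERK, was, among these 10, the nearest to the order of Ahnak and Svil in its means, with 67.0, 70.9 and 83.8 FPKM in NRASG12D, 39.8, 42.8 and 52.8 in NUP98-NSD1, and 24.8, 51.8 and 131 in NUP98-NSD1+NRASG12D. Its NUP98-NSD1+NRASG12D libraries lay on both sides of those of NUP98-NSD1, and the first was again the lowest.

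The genes next to Ahnak on the chromosome did not share its level. Of 15 annotated genes within 100 kb, 12 were tested, and none had its NUP98-NSD1 libraries under the other 6. In NUP98-NSD1 against NRASG12D, 9 of the 12 were higher and none lower by limma, with a median of 0.49, where 42.2% of all genes were higher. After median-ratio scaling 4 were higher, with a median of 0.21, against 3231 of 13493 genes higher and a median of 0.01 over all genes. Eef1g, a subunit of the translation elongation factor 10805 bases before Ahnak, had 153 to 169, 227 to 307 and 207 to 386 FPKM in the groups in the order given above. Svil had 3 neighbours within 100 kb, of which Zfp438, 90730 bases after it, was tested. It stood at 1.39 to 1.77, 1.60 to 2.00 and 0.965 to 1.16 FPKM and passed neither test against NUP98-NSD1.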

How the data were processed

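The authors sequenced RNA of 9 libraries as paired reads of 50 bases. Per the labels they used STAR 2.7.2a and Cufflinks 2.2.1 on GRCm38.p6. The deposited values are FPKM per gene. Strand-specific counting and the treatment of reads with several alignments are not given in the sources used here. Values of an identifier listed more than once were summed. Coordinates are from GENCODE M21, counted from 1. Groups came from the sample titles.

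Values were compared as log2(FPKM + 1), which understates changes of low genes, with limma 3.58.1 in R 4.3.3 (trended eBayes, the 6 libraries of a comparison, no block) over 13493 genes. P-values were adjusted by Benjamini-Hochberg, with a threshold of 0.05. The test was checked on simulated data. The study's methods name DESeq2 on counts, which FPKM are not.

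Fragments per library were estimated from the steps between low FPKM over 3386 genes with 1 annotated transcript of more than 2500 bases. Between 86.8% and 89.9% of low values lay within 0.15 of a whole step. Intervals are exact Poisson intervals over the longest transcript and cover counting error only. The sources used here do not say whether reads carried molecular identifiers.

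The genes and lists were chosen with earlier results of these data known. Named genes are the members, the 5 genes nearest outside the threshold, the 10 most abundant genes of the RAS and ERK list, and Nras. Left-out and overlapping genes, partners, family, neighbours, Cotl1, Nup98 and marker sums were added after values were seen. Replicate numbers come from the titles, and nothing states that they pair libraries. Other pseudocounts, filters, scalings, models, thresholds and fits without each library were tried. Plots used matplotlib 3.10.9 in Python 3.11.15.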

Additional observations from a re-analysis of the deposited data

How the results depend on the processing

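The number of genes that met the rule depended on the processing. It was 2 as deposited, 5 with a pseudocount of 0.1, 20 after quantile normalization, 7 after median-ratio scaling, 0 with a threshold of 1, 7 with overlap allowed and 9 with the trend on transcript length removed, an alternative chosen after seeing the data. Leaving out single libraries gave 1 to 10 genes. For both genes NUP98-NSD1+NRASG12D minus NRASG12D changed sign after quantile normalization (-0.13 for Svil and -0.13 for Ahnak) and after median-ratio scaling (-0.051 for Svil and -0.060 for Ahnak). It also did so for Ahnak without the first NRASG12D library (-0.04) or the second NUP98-NSD1+NRASG12D library (-0.29), and for Svil without the third NUP98-NSD1+NRASG12D library (-0.12). Over all fits without 1 library it ran from -0.29 to 0.51 for Ahnak and from -0.12 to 0.33 for Svil. Neither gene passed the limma test in that comparison under any alternative run. The cause of these shifts was not tested.

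The count of called genes of the RAS and ERK list against NUP98-NSD1 in NUP98-NSD1+NRASG12D was 13, and was 4 without a filter and 23 with all 9 libraries in 1 fit. Leaving out single libraries gave 8 to 19 there, 15 to 24 for NUP98-NSD1+NRASG12D against NRASG12D (23 with every library), and 21 to 23 for NUP98-NSD1 against NRASG12D (22 with every library). Libraries with the same replicate number did not deviate together on average (mean correlation 0.016, -0.0277 and 0.00211). Correlations for single replicate numbers ran from -0.177 to 0.16. With 3 libraries per group this cannot decide whether the numbers pair libraries. With a replicate block 0 members were called, and the list counts were 23, 23 and 13. Scaling moved the share of higher calls over all genes in NUP98-NSD1 against NRASG12D from 80.9% to 52.3% (median-ratio) and 43.2% (quantile). In NUP98-NSD1+NRASG12D against NRASG12D it moved from 63.1% to 53.1% and 41.3%. Of 46 called values of 21 other genes from the lists, 22 passed under every alternative, and none changed sign. Leaving out genes by the status of their Cufflinks estimate was planned and not run, because the tables used here hold no status.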
